A study of Mus musculus with 9 samples.

Results

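The genes described here encode the core proteins that make and use microRNAs (miRNAs): Drosha, Dgcr8, Xpo5, Dicer1, Tarbp2, Ago1, Ago2, Ago3 and Ago4. They were chosen by gene symbol, and all 9 were found among the 31804 genes of the deposited count table. The libraries come from dorsal hippocampus of male C57BL/6NCrl mice, an inbred strain, and fall into 3 groups of 3: shRNA B against Camta1, shRNA A against Camta1, and a control shRNA. According to the labels the hairpin was carried by a recombinant adeno-associated virus (rAAV), injected at 8 weeks of age, and tissue positive for the red marker protein mCherry was dissected 3 weeks later. Camta1 encodes a calmodulin-binding transcription activator. Per the series' design each group holds 3 animals, and p-values measure the spread between these libraries. Every group, the controls included, received a virus that makes a hairpin, and no library here comes from tissue without one, so the data compare hairpins with one another. Which promoter drives the hairpins was not given in the sources used here. In dissected tissue, fewer cells of a type and less RNA per cell cannot be told apart.

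A miRNA starts as a hairpin in a long transcript. In the nucleus the Microprocessor, made of the endonuclease Drosha and its RNA-binding partner Dgcr8, cuts the hairpin out. Xpo5 carries it to the cytoplasm, where Dicer1 with Tarbp2 removes the loop, and one strand is loaded into an Argonaute protein. That strand, chiefly through its seed (bases 2 to 8), guides the Argonaute to matching mRNAs. A simple shRNA resembles a hairpin already cut by Drosha, so it needs Xpo5, Dicer1 and the Argonautes but not the Microprocessor. Whether the hairpins of these vectors have that form was not given in the sources used here. Whether the genes of this route differed between the hairpins is the question the comparison addresses.

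Total counts per library lay between 29123744 and 38189288. Camta1 itself had 239, 145 and 266 CPM with shRNA B, 230.5, 174 and 254 CPM with shRNA A, and 427, 455 and 442 CPM in controls, where CPM are counts on a common library size after TMM scaling. The libraries with either Camta1 hairpin averaged 49.4% of the control mean, and the 6 lay below all 3 controls (exact two-sided permutation test, p = 0.0119, the smallest that 6 against 3 libraries can give). In the edgeR quasi-likelihood fit over all genes, the adjusted p of Camta1 was 0.0776 for shRNA B and 0.388 for shRNA A, above the threshold of 0.05. The 10 neuron markers summed to 13711 to 14302 CPM with shRNA B, 13508 to 14439 CPM with shRNA A and 13535 to 15078 CPM in controls, and none was at 0. Control replicate 3 stood apart in 6 choroid plexus markers, with a sum of 1048 CPM, while the other 8 libraries held 23.98 to 45.6 CPM, and oligodendrocyte markers ranged from 3104 to 7182 CPM across all libraries.

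All 9 members were well measured, with 291 to 5128 counts per library, and all passed the filter on low counts. Levels between genes were set side by side as FPKM, which are CPM divided by the length of a gene's exons in kilobases, with the exon-union lengths of the GENCODE M21 annotation. Drosha had the highest level per length, at 20.5 to 23.1 FPKM over the 9 libraries, followed by Ago1 at 16.1 to 19.4 FPKM and Xpo5 at 11.02 to 11.8 FPKM. Those 3 ranges did not overlap. Dicer1 at 5.23 to 6.37 FPKM and Dgcr8 at 4.57 to 5.80 FPKM overlapped, as did Ago2 at 2.22 to 2.83 FPKM and Tarbp2 at 2.10 to 2.99 FPKM. Ago4, at 1.37 to 2.08 FPKM, and Ago3, at 1.09 to 1.39 FPKM, had the lowest levels per length, and their ranges overlapped at the edge. The highest mean was 18.3 times the lowest. The order depends in part on the length used: with each gene's longest transcript, Tarbp2 averaged 3.99 FPKM and Ago2 2.53 FPKM, which separates that pair and puts Tarbp2 above Ago2. These levels are a description, with the authors' gene annotation not given in the sources used here.

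**Figure D1:**
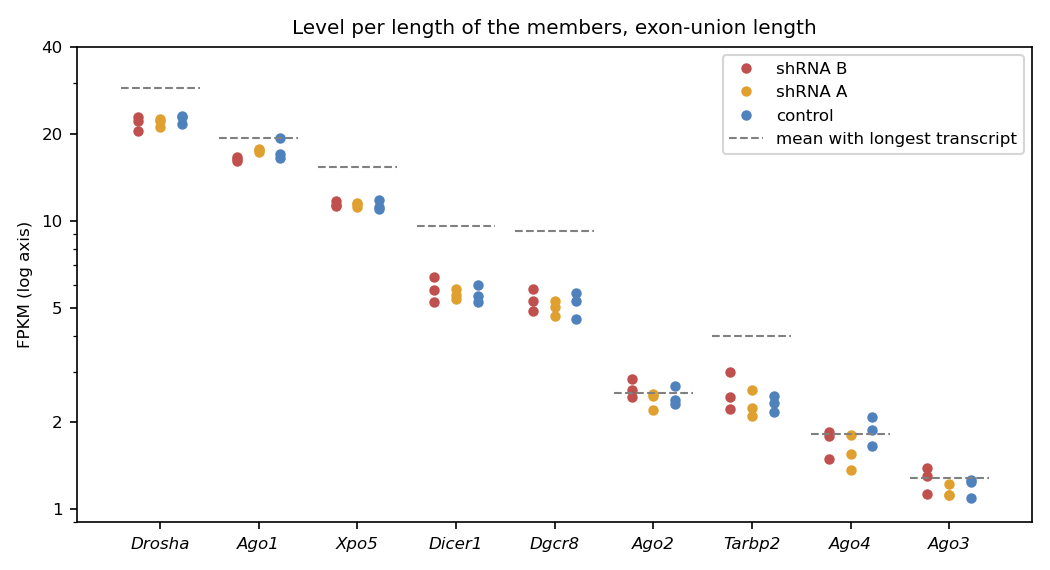
Level per length (FPKM, log axis) of each member in each of the 9 libraries, with shRNA B, shRNA A and control from left to right within a gene; dashed lines give the mean over 9 libraries with the longest transcript in place of the exon union. Drosha, Ago1 and Xpo5 separate from one another and from the rest, while the groups within each gene lie close together.

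No member passed the test in any of 4 contrasts. With edgeR's quasi-likelihood test at an adjusted p under 0.05, 0 of 9 were called for shRNA B minus control, where 1.02% of 16438 tested genes were called. Likewise 0 of 9 were called for shRNA A minus control (0.0243% of all genes), for both shRNAs averaged against control (0.0973%) and for shRNA B over shRNA A (0% of all genes in edgeR, where DESeq2 called 123). DESeq2 and limma-voom also called 0 of 9 in each contrast, as did edgeR without control replicate 3. At an unadjusted p under 0.05 the count was again 0 of 9 in each edgeR contrast, against 12.8% of all genes for shRNA B, 6.9% for shRNA A, 10.4% for their mean and 9.34% for shRNA B minus shRNA A. The groups' CPM ranges overlapped for all 9 members in the contrasts with controls, where 18.1% of genes did not overlap for shRNA B, 12.5% for shRNA A and 4.5% for both against controls. Between shRNA B and shRNA A, 1 of 9 did not overlap, Ago1, against 14.2% of all genes. Both shRNA contrasts share the same 3 control libraries.

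The size of the differences was also small. The median absolute log2 fold change of the members was 0.090 for shRNA B minus control, against 0.10 over all tested genes, and 0.034 for shRNA A minus control, against 0.086 over all tested genes. For shRNA B minus shRNA A it was 0.099, slightly above the 0.091 over all tested genes. The members' signed median was 0.05 for shRNA B minus control, with 6 members above 0 and 3 below, and -0.03 for shRNA A minus control, with 1 above and 8 below. For shRNA B minus shRNA A it was 0.09, with 7 above and 2 below. Over all genes each of these signed medians was 0.00. An adjusted p above the threshold does not show that levels were equal, but the 95% intervals bound the difference: over all 9 members they reached from -23.7% to 31.2% relative to control for shRNA B and from -30.2% to 18.98% for shRNA A. Between the hairpins, shRNA B minus shRNA A, they reached from -15.7% to 32.2%. The intervals are for each gene singly and are not adjusted for 9 genes.

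**Figure D2:**
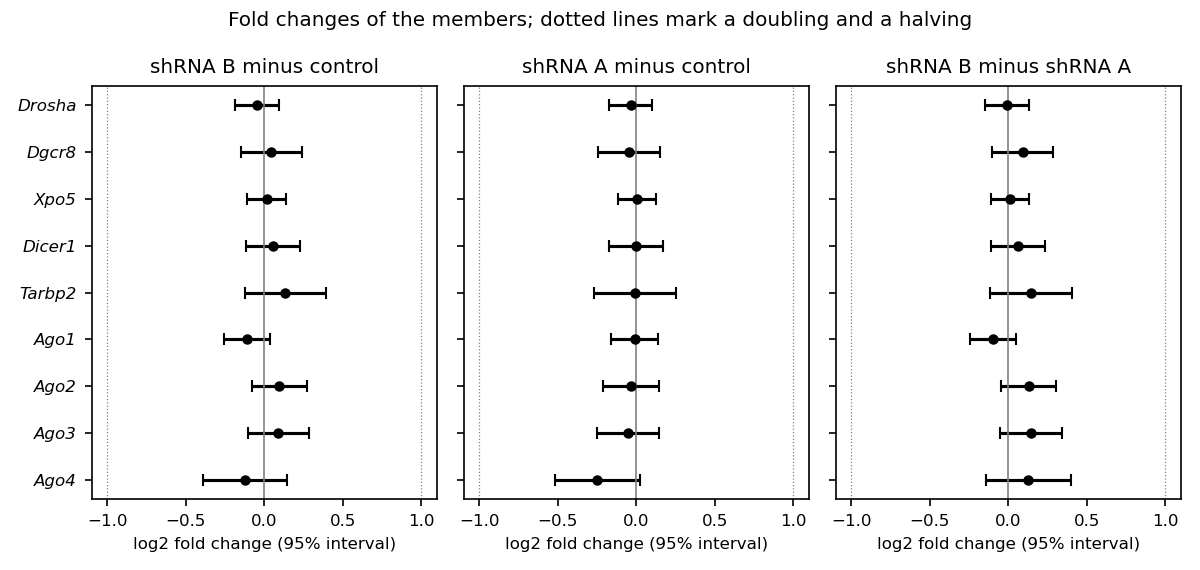
Log2 fold changes with 95% intervals of the 9 members, with shRNA B minus control on the left, shRNA A minus control in the middle, and the contrast of shRNA B with shRNA A on the right. Every interval includes 0 and lies inside the dotted lines at -1 and 1; the widest lower bound, for Ago4 with shRNA A, is -0.52.

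Neither Microprocessor gene separated the groups. Drosha had 122, 136 and 131 CPM with shRNA B, 126, 134 and 132 CPM with shRNA A, and 129, 136 and 137 CPM in controls. The 3 groups overlapped, and the log2 fold change was -0.05 ± 0.06 (SE) for shRNA B minus control and -0.04 ± 0.06 for shRNA A minus control. Dgcr8 had 44.6, 40.6 and 37.5 CPM with shRNA B, 38.8, 40.6 and 35.9 CPM with shRNA A, and 40.4, 35.2 and 43.4 CPM in controls. Its highest value was in shRNA B replicate 1 and its lowest in control replicate 2, and the groups overlapped here too. The log2 fold change of Dgcr8 was 0.05 ± 0.09 for shRNA B minus control (95% interval -0.15 to 0.24) and -0.05 ± 0.09 for shRNA A minus control (-0.24 to 0.15). Per length, Drosha stood above Dgcr8 by a factor of 4.15 ± 0.530 with shRNA B, 4.42 ± 0.306 with shRNA A and 4.41 ± 0.523 in controls (SD, n = 3 each). With the longest transcript the factor averaged 3.15 over the 9 libraries.

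Dgcr8 mRNA carries hairpins of its own that the Microprocessor is known to cut, by which Drosha and Dgcr8 restrain the Dgcr8 message. In the annotation, 2 miRNA genes lie on the Dgcr8 strand inside its exons. Mir1306 lies wholly in the coding sequence, at chr16:18284239-18284317 on the minus strand of GRCm38.p6, and Gm24572 lies wholly in the untranslated leader. The RefSeq hairpin of Mir1306 is shown because it is a piece of the message counted as Dgcr8, with the arms of its mature miRNAs in capitals.
Mir1306 hairpin: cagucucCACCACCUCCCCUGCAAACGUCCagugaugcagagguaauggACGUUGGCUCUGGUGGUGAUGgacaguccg
The table's own row for Mir1306 had 0 counts in all 9 libraries, where 3 counts equal 0.0776 to 0.102 CPM per library, for counting error only. This 0 sets no bound on RNA from the hairpin, because all its 79 bases also lie in annotated Dgcr8 exons. Whether reads over this hairpin went to Dgcr8, to no gene or elsewhere depends on counting settings, not given in the sources used here. Mir693, which lies in an intron of Xpo5, also had 0 counts in every library. For Dgcr8, 825 exon bases overlap Trmt2a on the opposite strand, and 15.0% of its stretches of 50 bases recur in other annotated transcripts, so its counts are less certain than those of Xpo5, with 0% recurring.

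Xpo5, the nuclear export receptor for hairpins, was the steadiest member. It had 77.8, 80.2 and 77.2 CPM with shRNA B, 78.98, 76.5 and 78.3 CPM with shRNA A, and 75.6, 76.7 and 80.6 CPM in controls. The highest of the 9 libraries was 1.07 times the lowest. Log2 fold changes were 0.01 ± 0.06 for shRNA B minus control and 0.01 ± 0.06 for shRNA A minus control, and the 95% intervals ran from -7.17% to 9.85% for shRNA B and from -7.75% to 9.19% for shRNA A. The order of the libraries did not follow the groups: shRNA B replicate 2 and control replicate 3 were the highest and control replicate 1 the lowest.

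Dicer1 and Tarbp2, the enzyme that cuts off the loop and its double-stranded RNA-binding partner, differed by less than the spread between libraries. Dicer1 had 96.3, 107 and 87.7 CPM with shRNA B, 92.3, 96.7 and 89.9 CPM with shRNA A, and 91.7, 87.7 and 100.4 CPM in controls. The highest value came from shRNA B replicate 2 and the next from control replicate 3. For Dicer1 the log2 fold change was 0.06 ± 0.08 for shRNA B minus control and -0.004 ± 0.08 for shRNA A minus control (95% intervals -0.12 to 0.23 and -0.18 to 0.17). Tarbp2, among the members with the fewest counts, had 11.1, 13.6 and 10.1 CPM with shRNA B, 10.2, 9.55 and 11.7 CPM with shRNA A, and 10.6, 9.90 and 11.2 CPM in controls. One library, shRNA B replicate 2, stood above all others, and the groups overlapped. The log2 fold change of Tarbp2 for shRNA B minus control was 0.13 ± 0.12 (adjusted p = 0.711 in edgeR), with an interval of -8.36% to 31.2%, the widest of the shRNA B contrast on the upper side. On leaving out 1 library it ranged over 0.0073 to 0.22, lowest without shRNA B replicate 2. For Tarbp2, 14.3% of its 50-base stretches recur in Gm18561 or Gm18584, so reads could be split or lost there. Per length, Dicer1 exceeded Tarbp2 by a factor of 2.28 ± 0.126 with shRNA B, 2.43 ± 0.337 with shRNA A and 2.39 ± 0.0477 in controls (SD, n = 3 each).

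**Figure D3:**
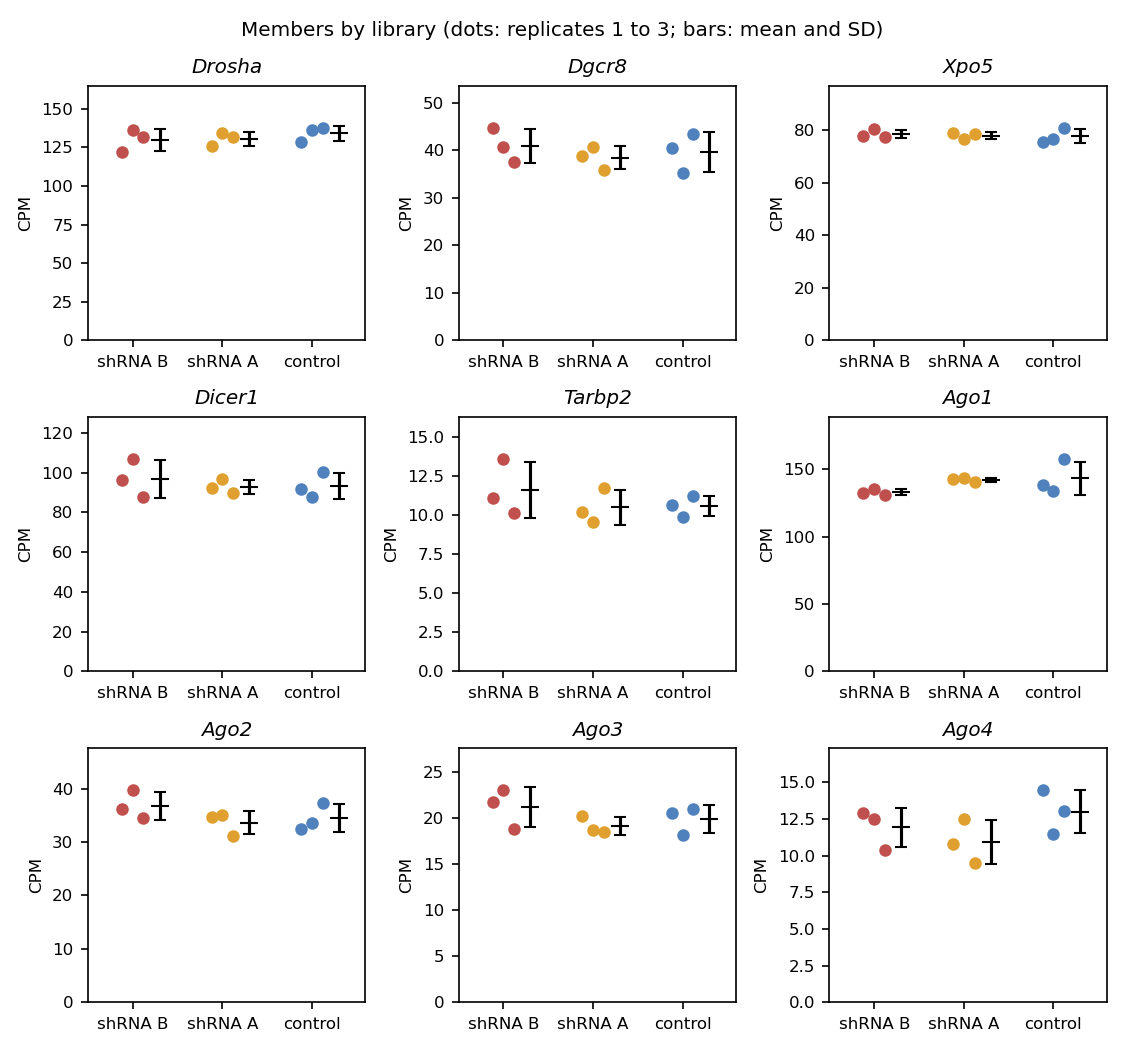
CPM of the 9 members in each library, with shRNA B, shRNA A and control from left to right; dots are replicates 1 to 3 and bars the mean and SD of 3 libraries. In all panels the control dots overlap those of each Camta1 hairpin, and in the Ago1 panel the shRNA B dots, 131 to 135.0 CPM, lie below the shRNA A dots, 140.3 to 144 CPM.

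The Argonautes bind the guide strand. Ago2 is the one with strong slicing activity in mammals, which an shRNA with full match to its target uses, and Ago1, Ago3 and Ago4 act mainly through recruited silencing proteins. Ago1, Ago3 and Ago4 sit on the same strand of chromosome 4, in the order Ago3, Ago1, Ago4, while Ago2 is on chromosome 15.

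Ago1 had 133, 135 and 131 CPM with shRNA B, 143, 144 and 140.3 CPM with shRNA A, and 139, 134 and 157 CPM in controls. Control replicate 3, the library with choroid plexus markers, was the highest of the 9, and the part of that tissue in the value was not tested. The log2 fold change of Ago1 was -0.11 ± 0.07 for shRNA B minus control (adjusted p = 0.550 in edgeR) and -0.01 ± 0.07 for shRNA A minus control (adjusted p = 0.979). It was -0.10 ± 0.07 for shRNA B minus shRNA A (edgeR adjusted p = 0.701), although all shRNA B libraries lay below all shRNA A libraries. Without control replicate 3, the value for shRNA B minus control was -0.04.

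Ago2 had 36.3, 39.7 and 34.4 CPM with shRNA B, 34.7, 35.1 and 31.1 CPM with shRNA A, and 32.4, 33.5 and 37.4 CPM in controls. The highest library was shRNA B replicate 2 and the second was control replicate 3, so the groups overlapped. Its log2 fold change was 0.09 ± 0.08 for shRNA B minus control, -0.03 ± 0.08 for shRNA A minus control, and 0.13 ± 0.08 between the hairpins (shRNA B minus shRNA A), with 95% intervals of -5.43% to 20.6%, -13.5% to 10.4% and -3.22% to 23.5%. Exons of Ago2 overlap those of Chrac1, on the opposite strand, by 219 bases, and 3.46% of its 50-base stretches recur in other genes.

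Ago3 had 21.7, 22.95 and 18.7 CPM with shRNA B, 20.2, 18.6 and 18.5 CPM with shRNA A, and 20.5, 18.1 and 20.9 CPM in controls. Its log2 fold change was 0.09 ± 0.09 for shRNA B minus control and -0.05 ± 0.09 for shRNA A minus control. Ago4 had 12.9, 12.5 and 10.4 CPM with shRNA B, 10.8, 12.5 and 9.52 CPM with shRNA A, and 14.4, 11.5 and 13.1 CPM in controls. The control values were high in replicates 1 and 3 but overlapped those of both hairpins. At -0.25 ± 0.12 for shRNA A minus control (95% interval -0.52 to 0.02, adjusted p = 0.741 in edgeR), Ago4 had the largest absolute log2 fold change of any member in the 4 contrasts. For shRNA B minus control it was -0.12 ± 0.12 (-0.39 to 0.15). On leaving out 1 library, Ago4 ranged over -0.21 to -0.033 for shRNA B and over -0.36 to -0.16 for shRNA A, each minus control. Ago4 also varied most among the members, its highest library being 1.52 times its lowest.

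The deposited counts also give the make-up of the Argonaute pool. Summed over the 4 genes, the level per length was 21.96 ± 0.745 FPKM with shRNA B, 22.6 ± 0.579 FPKM with shRNA A and 23.2 ± 1.82 FPKM in controls (SD, n = 3 each). Of this sum Ago1 made up 73.96, 73.5 and 76.00% with shRNA B, 77.00, 76.5 and 78.6% with shRNA A, and 75.2, 76.3 and 76.9% in controls. Ago2 made up 11.7, 12.5 and 11.6% with shRNA B, 10.9, 10.8 and 10.1% with shRNA A, and 10.2, 11.03 and 10.6% in controls. Thus the 3 shRNA B libraries had Ago2 shares above those of the other 6, although the CPM of Ago2 overlapped between the groups in every contrast. Ago1 shares with shRNA B lay below all those with shRNA A and overlapped those in controls. Each share depends on all 4 genes of the sum. How often such a share separates groups among other genes was not computed. The means of Ago2 were 11.9% ± 0.489 with shRNA B, 10.6% ± 0.437 with shRNA A, 10.6% ± 0.430 in controls (SD, n = 3 each). Ago3 averaged 5.80% ± 0.404 with shRNA B, 5.10% ± 0.240 with shRNA A, 5.17% ± 0.246 in controls, and Ago4 averaged 7.81% ± 0.680 with shRNA B, 6.94% ± 0.791 with shRNA A, 8.10% ± 0.932 in controls, with overlapping ranges. Ago1 exceeded Ago2 by a factor of 6.25 ± 0.342 with shRNA B, 7.32 ± 0.413 with shRNA A and 7.19 ± 0.249 in controls per length. No test was made of these shares, which are a description of transcripts and not of protein. With the longest transcripts, the Ago2 share was 11.0% with shRNA B, 9.74% with shRNA A and 9.76% in controls on average.

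**Figure D4:**
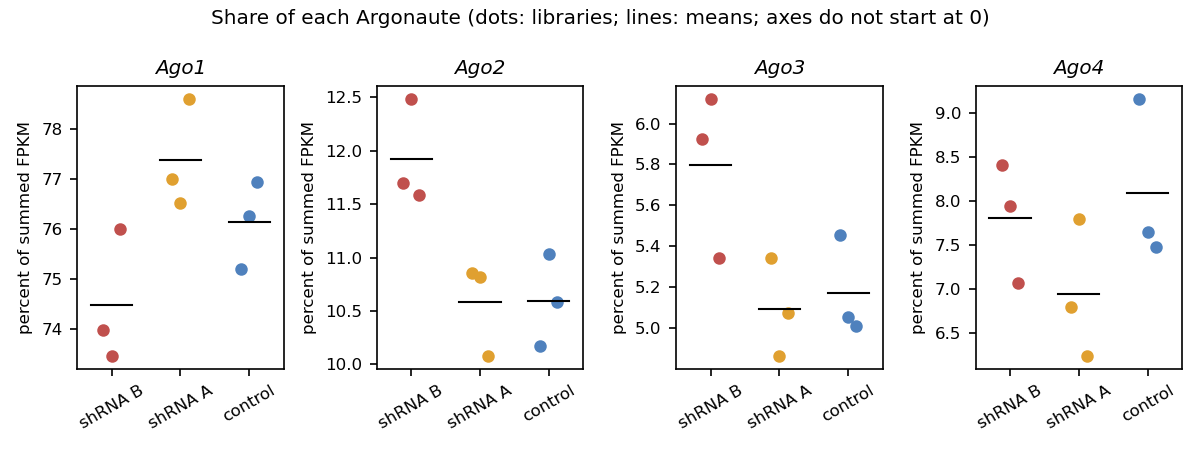
Share of each Argonaute in the summed Argonaute level per length, in percent (y axes do not start at 0), for libraries with shRNA B, shRNA A and control from left to right; lines are group means. Ago2 shares are 11.6% to 12.5% with shRNA B and 10.1% to 11.0% in the other 6 libraries, while the CPM of Ago2 overlap between the groups.

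Across the 9 libraries Ago2 and Dicer1 followed each other more closely than they followed the other members. Likeness was measured as the root mean square difference of centred log2 CPM over the 9 libraries, among 10159 genes that averaged 10 CPM or more. Ago2 and Dicer1 differed by 0.053, set beside an SD of 0.10 for Ago2 and 0.089 for Dicer1 across the libraries. Dicer1 ranked 52 among the genes most like Ago2, and Ago2 ranked 79 among those most like Dicer1. The nearest genes to Ago2 were Ascc2 at 0.026, Baz2a at 0.026 and Igf1r at 0.036. Those nearest to Dicer1 were Pcsk7 at 0.026, Vps37b at 0.030 and Mical3 at 0.030. The 9 points share library and tissue composition, so this is a description of these libraries.

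The authors' deposited table gives the same genes from a likelihood ratio test over the 3 groups. In the authors' deposited table the adjusted p of the members ran from 0.767 for Ago4 to 0.999 for Xpo5, and that of Camta1 was 0.000358.

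The proteins that work with the members showed no called change. Of 12 processing and export cofactors, 19 Argonaute loading and partner proteins, 28 silencing effectors and 17 genes of tailing, trimming, editing and decay (16 tested), 0 were called in any of the 4 contrasts by edgeR, DESeq2 or limma-voom. At an unadjusted p under 0.05, edgeR gave 0, 1, 2 and 3 genes in those lists for shRNA B minus control, and 1, 0, 1 and 0 for shRNA A minus control, against the 12.8% and 6.9% of all genes. For the mean of both shRNAs the counts were 0, 0, 1 and 2, and for shRNA B minus shRNA A 0, 1, 0 and 1. Median log2 fold changes for shRNA B minus control were 0.00 for cofactors, 0.02 for partners, 0.01 for effectors and 0.05 for the tailing list. For shRNA A minus control they were -0.04, -0.01, 0.00 and -0.05.

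Among the cofactors, Prkra, a second partner of Dicer1, had 11.7, 13.1 and 11.3 CPM with shRNA B, 11.1, 10.97 and 10.1 CPM with shRNA A, and 11.9, 9.68 and 10.4 CPM in controls. Ran, the GTPase that Xpo5 needs to hold its cargo, had 70.02, 71.9 and 65.3 CPM with shRNA B, 63.9, 61.4 and 65.8 CPM with shRNA A, and 74.4, 68.6 and 68.5 CPM in controls. Neither passed the threshold: the smallest adjusted p over the 4 contrasts in edgeR was 0.502 for Prkra and 0.611 for Ran. For Ran all shRNA A libraries lay below all control libraries, with a log2 fold change of -0.15 ± 0.06. For Prkra all shRNA B libraries lay above all shRNA A libraries. In each of those contrasts 1 of 12 cofactors did not overlap, against 12.5% and 14.2% of all genes. Among the partner proteins, Fmr1, an RNA-binding protein that associates with Argonaute in neurons, had 62.5, 62.3 and 58.8 CPM with shRNA B, 64.2, 66.4 and 60.5 CPM with shRNA A, and 70.3, 64.5 and 67.2 CPM in controls. Its log2 fold change for shRNA B minus control was -0.14 ± 0.06 (edgeR adjusted p = 0.377), and all shRNA B libraries lay below all control libraries. In that contrast the groups did not overlap for 4 of 19 partner proteins, against 18.1% of all genes. Mov10, an RNA helicase found with Argonaute, had 11.1, 13.9 and 11.3 CPM with shRNA B, 10.6, 9.39 and 8.22 CPM with shRNA A, and 10.04, 9.61 and 12.1 CPM in controls. All shRNA B libraries lay above all shRNA A libraries for Mov10, with a log2 fold change for shRNA B minus shRNA A of 0.36 ± 0.13 (edgeR adjusted p = 0.395). Between these hairpins 2 of 19 partner proteins did not overlap, against 14.2% of all genes.

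Among the silencing effectors, Pabpc1, the poly(A)-binding protein that Tnrc6 proteins contact, had 174.2, 210.6 and 169.6 CPM with shRNA B, 175.6, 170.8 and 167.5 CPM with shRNA A, and 154.3, 166.5 and 164.5 CPM in controls. Both hairpins lay above the controls without overlap, narrowly for shRNA A, with log2 fold changes of 0.19 ± 0.08 for shRNA B and 0.08 ± 0.08 for shRNA A (edgeR adjusted p = 0.351 and 0.863). Among the 28 silencing effectors, the groups did not overlap for 3 with shRNA B and 4 with shRNA A, against 18.1% and 12.5% of all genes. The 4 with shRNA A include Wtip, higher than in controls. For both hairpins together against controls, 2 of 28 did not overlap, against 4.5% of all genes. Wtip, a LIM-domain protein, had 8.07, 8.99 and 9.17 CPM with shRNA B, 8.85, 9.36 and 10.96 CPM with shRNA A, and 7.19, 8.05 and 8.47 CPM in controls, and its smallest adjusted p in edgeR was 0.449. In the tailing and decay list, Msi2, an RNA-binding protein, had 84.6, 75.9 and 89.9 CPM with shRNA B, 94.9, 98.3 and 89.2 CPM with shRNA A, and 105, 91.5 and 99.2 CPM in controls. Its log2 fold change was -0.24 ± 0.08 for shRNA B minus control (edgeR adjusted p = 0.210). All shRNA B libraries of Msi2 lay below all controls, and those of Lin28b lay above them. In that contrast the groups did not overlap for 3 of 16 tested genes of this list, against 18.1% of all genes. Lin28b, known for blocking let-7 processing, was near 1 CPM and had 1.78, 1.51 and 1.87 CPM with shRNA B, 0.959, 1.83 and 1.57 CPM with shRNA A, and 1.36, 1.11 and 0.945 CPM in controls, with a log2 fold change of 0.60 ± 0.25 for shRNA B minus control (edgeR adjusted p = 0.333).

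The libraries were made from polyadenylated RNA and hold no measure of mature miRNAs. They do hold reads that the authors counted to miRNA genes. Which RNA those reads come from was not tested. Of 641 such rows, which were listed after the files were seen, 370 had 0 counts in every library and 46 were tested. None of the 46 was called in any contrast by edgeR, DESeq2 or limma-voom, and at an unadjusted p under 0.05 edgeR gave 1 for shRNA B minus control and 0 in the other 3 contrasts. The row with the smallest unadjusted p, Mir377, had 0.225 to 0.284 CPM with shRNA B, 0.257 to 0.415 CPM with shRNA A and 0.350 to 0.577 CPM in controls. Its log2 fold change for shRNA B minus control was -0.75 ± 0.34 (edgeR adjusted p = 0.379). Mir124a-1, a neuronal miRNA gene, had 0.569, 0.535 and 0.901 CPM with shRNA B, 0.927, 0.997 and 0.982 CPM with shRNA A, and 1.15, 0.955 and 0.819 CPM in controls, with a log2 fold change of -0.55 ± 0.26 for shRNA B minus control (edgeR adjusted p = 0.395). The rows with the most reads, Gm23935 and Gm24270, named after their values were seen, were high in single libraries. Gm23935 had 122, 123 and 247 CPM with shRNA B, 162, 139 and 841 CPM with shRNA A, and 131, 158 and 130.0 CPM in controls. Gm24270 had 73.8, 75.7 and 117 CPM with shRNA B, 94.7, 86.1 and 353 CPM with shRNA A, and 68.6, 78.7 and 64.4 CPM in controls. In both rows shRNA A replicate 3 stood highest and shRNA B replicate 3 came next, above all remaining libraries. Of the 14 listed non-coding transcripts that host miRNAs, 2 were matched by symbol, Meg3 and C130071C03Rik, and 0 were called by edgeR, DESeq2 or limma-voom. At an unadjusted p under 0.05 edgeR gave 1 of the 2, Meg3, for shRNA B minus shRNA A alone. Meg3, an imprinted non-coding RNA, had 335, 416 and 463 CPM with shRNA B, 309.6, 338 and 374 CPM with shRNA A, and 385, 366 and 392 CPM in controls. C130071C03Rik had 46.7, 46.3 and 39.9 CPM with shRNA B, 43.4, 47.3 and 38.3 CPM with shRNA A, and 47.2, 42.97 and 48.4 CPM in controls, and the groups overlapped for both.

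Mir22, Mir29c, Mir29b-2, Mir212 and Mir132, named after their values were seen, are rows of miRNAs known in brain. Their mature sequences from RefSeq (GRCm38.p6) are shown because the seed decides which messages an Argonaute finds. Capitals mark bases 2 to 8, which miR-29b-3p shares with miR-29c-3p and miR-132-3p with miR-212-3p.
miR-22-3p: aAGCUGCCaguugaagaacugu
miR-29b-3p: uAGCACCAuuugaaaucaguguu
miR-29c-3p: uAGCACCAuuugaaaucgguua
miR-132-3p: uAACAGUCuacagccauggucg
miR-212-3p: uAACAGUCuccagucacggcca
The Mir22 row had 4.76, 7.08 and 6.18 CPM with shRNA B, 6.74, 5.44 and 7.23 CPM with shRNA A, and 5.60, 6.62 and 6.17 CPM in controls. Those values overlap, with a log2 fold change of -0.04 ± 0.15 for shRNA B minus control and 0.08 ± 0.15 for shRNA A minus control. The Mir29c row had 5.09, 4.53 and 4.09 CPM with shRNA B, 4.70, 5.15 and 4.42 CPM with shRNA A, and 5.66, 4.39 and 4.66 CPM in controls. The Mir29b-2 row, with the same seed, had 1.78, 2.04 and 1.93 CPM with shRNA B, 2.01, 1.83 and 2.23 CPM with shRNA A, and 2.68, 1.88 and 1.83 CPM in controls. Control replicate 1 was the highest in both rows. The Mir212 row had 0.802, 1.89 and 1.48 CPM with shRNA B, 1.31, 1.25 and 1.93 CPM with shRNA A, and 0.950, 1.66 and 0.976 CPM in controls. The Mir132 row had 0.517, 1.01 and 0.837 CPM with shRNA B, 0.671, 0.483 and 0.818 CPM with shRNA A, and 0.916, 1.21 and 0.724 CPM in controls. These 2 rows rest on 15 to 60 counts per library, and the groups overlap in each. The edgeR adjusted p of the 5 rows was at least 0.631 in all 4 contrasts.

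Genes for sensing double-stranded RNA held calls where the members held none. The list holds Ifih1, Dhx58, Ddx58, Eif2ak2, Tlr3, Zbp1 and the signalling adaptor Mavs. All 7 are referred to as sensors here. The list was chosen with earlier results of these data known, and the part of the hairpins in these values was not tested. Of 7 sensors, edgeR called 4 as higher with shRNA B than in controls and 0 with shRNA A, where 1 had an unadjusted p under 0.05. All 7 had a log2 fold change above 0 in both contrasts, with a median of 1.25 for shRNA B and 0.25 for shRNA A. For the mean of both shRNAs minus control, edgeR called 0 with 5 at an unadjusted p under 0.05. In that contrast limma-voom called 0 and DESeq2 called 5. Ifih1, a cytoplasmic helicase sensor of long double-stranded RNA, had 6.72, 12.3 and 9.24 CPM with shRNA B, 3.87, 4.41 and 3.47 CPM with shRNA A, and 2.54, 2.99 and 3.78 CPM in controls. All shRNA B libraries lay above all others. Its log2 fold change was 1.59 ± 0.22 for shRNA B minus control (edgeR adjusted p = 0.0109) and 0.33 ± 0.23 for shRNA A minus control (adjusted p = 0.801). Dhx58, a helicase of the same family, had 2.22, 4.72 and 3.09 CPM with shRNA B, 1.92, 2.06 and 1.31 CPM with shRNA A, and 1.05, 1.11 and 1.39 CPM in controls. Eif2ak2, the kinase PKR, had 9.18, 14.5 and 11.8 CPM with shRNA B, 9.14, 6.82 and 6.55 CPM with shRNA A, and 6.48, 6.53 and 6.49 CPM in controls. For shRNA B minus control, log2 fold changes were 1.49 ± 0.28 for Dhx58 and 0.86 ± 0.17 for Eif2ak2 (edgeR adjusted p = 0.0323 and 0.0369).

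The fourth, Zbp1, a sensor of left-handed nucleic acids, had 0.802, 2.04 and 1.42 CPM with shRNA B, 0.383, 0.804 and 0.0327 CPM with shRNA A, and 0.102, 0.0318 and 0.0315 CPM in controls (edgeR adjusted p = 0.0443 for shRNA B minus control). The control libraries of Zbp1 are near the level of 3 counts, so no fold change is given. Ddx58, the sensor RIG-I, did not pass, at a log2 fold change of 1.25 ± 0.24 and an adjusted p of 0.0502 in edgeR. For shRNA B minus shRNA A, edgeR called 0 of the 7 sensors with 5 at an unadjusted p under 0.05, limma-voom called 0 and DESeq2 called 3. On leaving out 1 library, edgeR called 2 in that contrast without replicate 1 of shRNA B and 1 without its replicate 3. The number of calls for shRNA B minus control also changed with the libraries kept: without control replicate 1 or 2 edgeR called 0 of 7 for shRNA B, without control replicate 3 it called 1, and without replicate 1 of shRNA A or replicate 2 or 3 of shRNA B it called 2. Over the same leave-outs the log2 fold change for shRNA B minus control ranged over 1.35 to 1.79 for Ifih1, 1.15 to 1.72 for Dhx58 and 0.69 to 1.02 for Eif2ak2. Calls over all genes in this contrast also dropped, to 13, 23 and 19 without control replicate 1, 2 and 3, against 167 with all libraries. Of the fits on all 9 libraries limma-voom called 1 sensor and the others 3 to 5, and the fit on the libraries of shRNA B and control alone called 1.

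Interferon-response genes and microglia markers were also highest in the shRNA B libraries. The interferon-response list too was chosen with earlier results of these data known. Its counts beside the share of all genes are therefore a description and no test of the list. Of 12 interferon-response genes, edgeR called 9 as higher with shRNA B and 0 with shRNA A, where 4 had an unadjusted p under 0.05. All 12 had a log2 fold change above 0 with either hairpin, with a median of 2.64 for shRNA B and 1.05 for shRNA A. For the mean of both shRNAs minus control, 12 of 12 had an unadjusted p under 0.05 in edgeR, against 10.4% of all genes. In that contrast edgeR called 1, B2m, and DESeq2 called 11, while edgeR called 0 without control replicate 1, 2 or 3. For shRNA B minus control, edgeR called 1 of 12 without control replicate 1, 2 or 3, and 4 of 12 after leaving out replicate 1 or 2 of shRNA A or replicate 3 of shRNA B. It called 3 with no filter on low counts and 3 in the fit on shRNA B and control alone, while DESeq2 called 12 for shRNA B, 1 for shRNA A and 7 for the difference between the hairpins, where edgeR called 0. Over the leave-outs the log2 fold change for shRNA B minus control ranged over 0.997 to 1.28 for B2m, 2.13 to 2.71 for Ifit3 and 1.99 to 2.43 for Rtp4. B2m, the light chain of class I molecules, averaged 124 ± 24.4 CPM with shRNA B, 78.5 ± 6.45 CPM with shRNA A and 55.3 ± 3.73 CPM in controls (SD, n = 3 each, edgeR adjusted p = 0.006 for shRNA B minus control). Ifit3, induced by interferon, averaged 17.5 ± 6.84 CPM with shRNA B, 5.91 ± 1.50 CPM with shRNA A and 3.14 ± 0.710 CPM in controls. Ifit1, Rtp4, Usp18 and Mx1 were the other named genes of the list, with edgeR adjusted p of 0.0443, 0.0167, 0.0391 and 0.0246 for shRNA B minus control. Summed over the list, the level was 209 to 420.1 CPM with shRNA B, 114 to 162 CPM with shRNA A and 90.4 to 99.0 CPM in controls. The 10 microglia markers summed to 669.8 to 751 CPM with shRNA B, 584 to 662 CPM with shRNA A and 546 to 581 CPM in controls, and none was at 0. Of these 10, edgeR called 4 for shRNA B and 0 for shRNA A, against 1.02% and 0.0243% of all genes. For shRNA B it also called 1 of 8 astrocyte markers and 1 of 7 meningeal markers. It called 0 neuron, oligodendrocyte, endothelial and choroid plexus markers. The part of microglia in the sensor values was not tested, nor whether sensor and interferon-response genes shared a response.

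**Figure D5:**
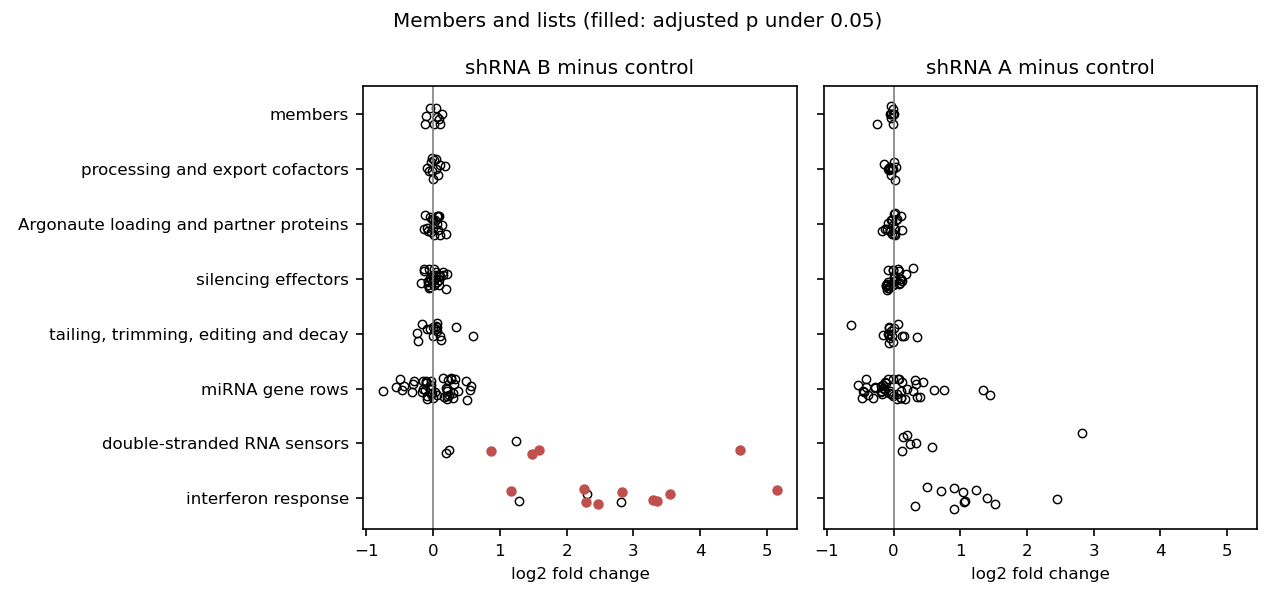
Log2 fold changes of the members and of the lists, for shRNA B minus control (left) and shRNA A minus control (right), each point a tested gene and filled where the edgeR adjusted p is under 0.05. The members and the other lists of the pathway hold no filled point, while 4 of 7 sensors and 9 of 12 interferon-response genes are filled for shRNA B; the point furthest right in each of those lists, Zbp1 and Mx1, has control libraries near the level of 3 counts.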

How the data were processed

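The authors deposited raw counts, as whole numbers for each Ensembl gene per the file headers, for 9 polyA libraries that do not keep strand. The submitters' processing notes list HTSeq 0.6.1 with TopHat 1.4.1 and SAMtools 0.1.19, build mm9, and DESeq2 1.4.5 in R 3.1.1. Counting settings and gene annotation are not given in the sources used here. The authors' deposited table also holds a mean normalized signal, log2 fold changes with SE, a test score, and p-values of a likelihood ratio test. Columns with values per sample that could not be matched to a label numbered 0.

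Genes were kept by filterByExpr (16438 of 31804, 8730 being at 0 throughout), scaled by TMM and tested two-sided with edgeR 4.0.16 (quasi-likelihood, robust) on all 9 libraries, with Benjamini-Hochberg adjustment over all tested genes and a threshold of 0.05. DESeq2 1.42.0 and limma 3.58.1 in R 4.3.3 were alternatives, with other scalings and filters, robust estimation off, each contrast's groups alone, a replicate block and each library left out. The script was tested on simulated data. FPKM used exon-union lengths of GENCODE M21 (GRCm38), from which overlaps and recurring stretches of 50 bases also come. miRNA sequences are from RefSeq. Floors of 3 counts reflect counting error alone, because PCR copies are not told apart. Replicates differed beyond counting noise in every pair (chi-square per degree of freedom 7.90 to 20.9).

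Every member is named. Of the other lists, up to 6 called genes are named by smallest adjusted p, or, where none was called, the 2 genes with the smallest unadjusted p in any contrast. Outside this rule are Ddx58, Tlr3 and Mavs, which the main edgeR fit did not call, and the miRNA rows said to be named after their values were seen. Members, lists and rules were chosen with earlier results of these data known.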

Additional observations from a re-analysis of the deposited data

How the results depend on the processing

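No member was called under any of the 17 alternatives, and the lowest adjusted p of a member was 0.320. Of 603 member log2 fold changes recomputed, 560 kept their direction and 43 changed sign, none by a value larger than 0.065 in size. Outside the leave-outs these were Drosha for shRNA B minus shRNA A at 0.010 with library size alone, and Dgcr8 for the mean of both shRNAs minus control at 0.0033 in limma-voom, 0.010 with library size alone and 0.0018 without the low-count filter. Leaving out a library gave these ranges of log2 fold change in the 19 of 36 results that changed sign. Ranges for shRNA B minus control were Dgcr8 -0.037 to 0.11, Xpo5 -0.0050 to 0.038 and Dicer1 -0.019 to 0.12. Ranges for shRNA A minus control were Dgcr8 -0.13 to 0.019, Xpo5 -0.014 to 0.029, Dicer1 -0.050 to 0.047, Tarbp2 -0.098 to 0.054, Ago1 -0.061 to 0.056 and Ago2 -0.075 to 0.025. Ranges for the mean of both shRNAs against control were Dgcr8 -0.083 to 0.065, Xpo5 -0.0093 to 0.033, Dicer1 -0.020 to 0.077, Tarbp2 -0.0016 to 0.10, Ago1 -0.11 to 0.0073, Ago2 -0.011 to 0.090 and Ago3 -0.047 to 0.057. Ranges for shRNA B minus shRNA A were Drosha -0.044 to 0.035, Xpo5 -0.0080 to 0.019 and Dicer1 -0.015 to 0.13.

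Counts of called genes over the whole table moved more. For shRNA B minus control (167) they were 386 in DESeq2, 95 in limma-voom, 42 with those groups alone, and 13 to 217 on leaving out a library. For shRNA A minus control (4) they were 43 in DESeq2, 0 in limma-voom, 9 without the filter, 2 with robust estimation off, 18 with those groups alone, and 0 to 10 on leaving out a library. For the mean of both shRNAs minus control (16) they were 243 in DESeq2, 67 without the filter, and 1 to 52 on leaving out a library. For shRNA B minus shRNA A (0, with 1536 at an unadjusted p under 0.05 in edgeR) they were 123 in DESeq2, 0 in limma-voom, 21 without the filter, and 0 to 110 on leaving out a library. Replicate numbers were not treated as pairs in the main fit. Same-numbered libraries correlated between -0.12 and 0.34 over 9 pairs, 2 of them above 0.1, and not every library correlated best with those of its own number. The highest value was between replicate 3 of shRNA A and replicate 3 of shRNA B, and whether these share a preparation was not tested. With the replicate number as a block the counts were 148 for shRNA B, 5 for shRNA A, 31 for the mean and 1 for shRNA B minus shRNA A, and 0 of 9 members were called in each contrast. The level of Camta1 stayed between 47.3% and 52.7% of control under its alternatives (exact permutation p 0.0119 to 0.0357).

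With 3 libraries a group, differences inside the stated intervals cannot be told from 0. Levels per length rest on another annotation than the one counted, polyA libraries hold no mature miRNA or protein, and without tissue free of a hairpin a response common to all 3 hairpins would not show.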
